A study of Rattus norvegicus with 4 samples.

Results

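Microtubule genes were followed in rat neural stem/progenitor cells (NSPCs) as the members of a family: the tubulins, the tubulin tyrosine ligase-like (Ttll) enzymes that modify them, and the kinesin and dynein motors with their light chains and the dynactin complex. Members were gene symbols that begin with Tuba, Tubb, Tubg, Ttll, Kif or Klc and then a digit, or with Dync or Dctn, without Tubb3. The rule found 69 members among 16881 symbols and used no measured value. Counts were present for 61 members, and 58 passed the filter of at least 10 counts in at least 1 library. The 8 members with no count in any library were Tuba3a, Ttll2, Ttll10, Ttll13, Kif5a, Kif12, Kif26a and Kif2b, and Tuba3b, Kif3c and Kif19 had counts below the filter.

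The study compared 2 culture platforms, PUCL@CNT1 and bare PUCL, before and after a change of medium, to look for genes that go with directed differentiation. All cells were wild type, and strain and age were not given in the sources used here. The 4 groups were NSPCs on PUCL@CNT1 in differentiation medium, on PUCL in differentiation medium, on PUCL@CNT1 in maintenance medium and on PUCL in maintenance medium. Every group first spent 24 h on its platform in a medium that keeps stemness, here called maintenance medium. The differentiation groups then had 1.5 d in a neuronal culture medium, so that the medium and the culture time differ together. RNA was sequenced from its 3′ ends by QuantSeq, with 500 ng of total RNA per library. Each group was 1 library, so a difference between 2 libraries has no replicate check.

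Microtubules are hollow polymers of alpha- and beta-tubulin dimers, and gamma-tubulin in ring complexes starts new ones. Most kinesins walk towards the plus end and carry cargo outwards or move chromosomes and spindle poles in division, whereas cytoplasmic dynein with its activator dynactin walks towards the minus end. Dividing neural progenitors need these motors for the spindle and for moving their nuclei, and young neurons need them to extend neurites. Tubulin isotypes are separate genes, and Tubb2b and Tuba1a are the isotypes best known from developing brain, where mutations of the human genes disturb neuronal migration.

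Libraries held 6035848 to 6855984 counts, and 9584 to 9842 symbols had a count in each. The members together held 2.86% of the counts on PUCL@CNT1 and 2.31% on PUCL in differentiation medium, against 2.60% on PUCL@CNT1 and 2.47% on PUCL in maintenance medium. Tubulins made up 84.1% to 86.4% of the members' counts. Of 10 NSPC markers 9 had counts and Msi1 was at 0, and their summed level was 6952 to 10985 CPM, a unit that sets counts to a common library size after TMM (trimmed mean of M values) scaling. Vim (4314 to 7635 CPM) made up most of these sums, whereas Pax6 (2.86 to 38.1 CPM) and Prom1 (1.05 to 11.3 CPM) were low. Markers of other cells were also present. Neuronal markers (9 of 10 with counts, Syp at 0) summed to 221 CPM on PUCL@CNT1 and 280 CPM on PUCL in differentiation medium, against 406 CPM on PUCL@CNT1 and 493 CPM on PUCL in maintenance medium. Mural and fibroblast markers (5 of 8 with counts) summed to 566 CPM on PUCL@CNT1 and 644 CPM on PUCL in differentiation medium, against 928 CPM on PUCL@CNT1 and 1330 CPM on PUCL in maintenance medium. Acta2 (343 to 1049 CPM) and Tagln (144 to 246 CPM) made up most of these sums, and Rgs5, Dcn and Lum were at 0. Oligodendrocyte lineage markers (8 of 8) summed to 1532 and 1538 CPM in differentiation medium, against 834 and 920 CPM in maintenance medium, with PUCL@CNT1 given first in each pair. Astrocyte markers (5 of 6, Slc1a2 at 0) summed to 920 CPM on PUCL in differentiation medium and to 459 to 468 CPM in the other libraries. S100b made up the higher sum, at 609 CPM in that library against 85.5 to 114.5 CPM in the others. Gfap and Aqp4 were also highest there, at 4.8 and 1.86 CPM. Gja1 was lowest there, at 304 CPM against 344 to 377 CPM, and Aldh1l1 was at 0 there. Endothelial markers (3 of 6, with Pecam1, Cdh5 and Tek at 0) summed to 2.78 to 29.5 CPM, and of 6 microglial markers only Cd68 had counts. Since RNA came from all cells of a culture, fewer cells of a type and less RNA per cell cannot be told apart, and the part of such cells in the results below was not tested. The overlapping ribosomal RNA entry Rn45s took 4.25% to 4.54% of counts on PUCL@CNT1 and 5.66% to 6.72% on PUCL, and its part in differences between platforms was not tested.

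A quasi-likelihood F test in edgeR with platform and medium as additive terms was fitted to all 10516 genes tested. After the switch to differentiation medium it called 2.81% of all genes at an adjusted p under 0.05, and 1 of 58 tested members, Tubb2b, which was higher, as were 1.8% of all genes. Between PUCL@CNT1 and PUCL it called 0.456% of all genes and 1 of 58 members, Ttll1, which was higher on PUCL@CNT1, as were 0.209% of all genes. At an unadjusted edgeR p under 0.05 there were 7 of 58 members for the medium, against 1273 of 10516 genes. For the platform there were 7 of 58 members, against 731 of 10516 genes. Single pairs of libraries were described by a rule of size and given no p: the scaled ratio had to reach 2-fold, with the nearer 95% counting bound past 1.5-fold. After the switch on PUCL@CNT1, 17 of 58 members (29.3%) passed this rule, against 30.9% of all genes, and after the switch on PUCL also 17 (29.3%), against 31.3%. For PUCL@CNT1 over PUCL, 18 members (31%) passed in differentiation medium, against 30.8% of all genes, and 11 (19%) in maintenance medium, against 26.1%. Of the 44 members that averaged at least 50 counts over the libraries, 10 (22.7%) passed it after the switch on PUCL@CNT1, against 22.3% of all such genes, and 8 (18.2%) on PUCL, against 22.1%. For the platform 6 (13.6%) passed in differentiation medium, against 20.9%, and 7 (15.9%) in maintenance medium, against 16.5%. Members past the rule in opposite directions in the 2 pairs were 5 of 58 for the medium, against 4.18% of all genes, and 5 of 58 for the platform, against 4.98%. None of these shares was tested. In level, both differentiation libraries lay above both maintenance libraries for 7 of 58 members, against 19.5% of all genes, and below both for 14, against 19.3%, so that 36.2% of members and 38.8% of all genes had media that did not overlap.

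Promoter windows are shown for the genes the results turn on: the beta-tubulin gene past the test, its close relative beside it on the same chromosome, and the 3 of 9 mitotic kinesins whose windows hold both motifs searched in that group, chosen for those matches and not for their values. Windows run from 250 bases before to 50 bases after each RefSeq gene start (GRCr8), 5′ to 3′ on the gene's strand. The files were made on rn6, so these coordinates belong to the RefSeq table alone. The CCAAT box, known for binding NF-Y, was searched by its letters, the TATA box as TATAAA, and the core of the cell cycle homology region (CHR) as TTTGAA, each on both strands. Capitals mark CCAAT and TATA box matches in the tubulin windows, and CCAAT and CHR matches in the kinesin windows. None of these matches shared a base with a match of another motif in these windows.
Tubb2b, chr17:30952836-30953135, plus strand: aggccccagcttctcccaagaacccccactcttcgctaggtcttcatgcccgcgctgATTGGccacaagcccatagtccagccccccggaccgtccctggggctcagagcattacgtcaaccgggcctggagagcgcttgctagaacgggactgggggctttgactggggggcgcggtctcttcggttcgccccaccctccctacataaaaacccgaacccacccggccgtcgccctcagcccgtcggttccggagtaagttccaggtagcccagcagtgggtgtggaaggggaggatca
Tubb2a, chr17:31001936-31002235, plus strand: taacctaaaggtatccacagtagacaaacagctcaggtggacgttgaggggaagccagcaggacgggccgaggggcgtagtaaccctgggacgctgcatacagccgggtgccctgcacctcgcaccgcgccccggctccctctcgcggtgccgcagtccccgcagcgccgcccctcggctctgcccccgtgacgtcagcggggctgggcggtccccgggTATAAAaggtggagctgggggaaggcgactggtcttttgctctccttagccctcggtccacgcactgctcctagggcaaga
Kif20b, chr1:241840766-241841065, plus strand: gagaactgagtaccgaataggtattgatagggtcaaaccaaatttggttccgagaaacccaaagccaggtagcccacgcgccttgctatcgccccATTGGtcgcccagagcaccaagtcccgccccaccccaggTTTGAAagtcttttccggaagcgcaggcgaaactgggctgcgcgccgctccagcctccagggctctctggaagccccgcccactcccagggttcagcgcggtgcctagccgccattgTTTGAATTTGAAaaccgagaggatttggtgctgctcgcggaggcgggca
Kif22, chr1:191080829-191081128, minus strand: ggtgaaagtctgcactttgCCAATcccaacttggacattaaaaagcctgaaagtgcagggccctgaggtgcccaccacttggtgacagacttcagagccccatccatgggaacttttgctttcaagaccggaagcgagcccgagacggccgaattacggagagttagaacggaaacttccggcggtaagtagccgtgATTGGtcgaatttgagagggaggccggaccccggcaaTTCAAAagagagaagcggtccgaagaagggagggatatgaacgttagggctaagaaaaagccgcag
Kif23, chr8:71320535-71320834, minus strand: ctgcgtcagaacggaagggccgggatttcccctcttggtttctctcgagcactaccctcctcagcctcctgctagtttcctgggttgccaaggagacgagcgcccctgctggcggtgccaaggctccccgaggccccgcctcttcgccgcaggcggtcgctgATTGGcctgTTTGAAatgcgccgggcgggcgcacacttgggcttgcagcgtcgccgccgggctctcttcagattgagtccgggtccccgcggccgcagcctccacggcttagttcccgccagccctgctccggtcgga

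A promoter window was available for 59 of the 69 members, with 62 windows between them. Members were counted as genes with a match in any of their windows, whereas the share of all windows was counted by window. The Tubb2b window held 1 CCAAT match and no TATA box, and the Tubb2a window held 1 TATA box match and no CCAAT box. The TATA box was present in 14.2% of all 33469 windows and in 7 of 59 members (11.9%), none of them mitotic kinesins. The CHR core was present in 4 of 9 mitotic kinesin promoters (Kif15, Kif20b, Kif22 and Kif23), 12 of 59 members (20.3%) and 18.3% of all windows. The CCAAT box was present in 5 of 9 mitotic kinesin promoters (Kif11, Kif20a, Kif20b, Kif22 and Kif23), 25 of 59 members (42.4%) and 37.5% of all windows. Kif20b, Kif22 and Kif23 were the mitotic kinesins with both. A match describes the letters in the window and says nothing of a factor.

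Tubb2b, a beta-tubulin of developing brain, rose after the switch to differentiation medium and was the one tubulin past the test. Tubb2b had 76986 counts on PUCL@CNT1 and 53812 on PUCL in differentiation medium, against 44784 on PUCL@CNT1 and 46012 on PUCL in maintenance medium. Both differentiation libraries were above both maintenance libraries, and the highest was PUCL@CNT1 in differentiation medium. On the scaled level this was 11581 and 8324 CPM, against 7170 and 6977 CPM, in the same order of libraries. The log2 ratio of the switch was 0.69 on PUCL@CNT1 (95% counting interval 0.68 to 0.71) and 0.25 on PUCL (0.24 to 0.27). The edgeR fit over both platforms gave a log2 ratio of 0.47 ± 0.107 (SE, adjusted p = 0.00304), a change of under 2-fold in each pair. The call was kept in 6 of 11 alternatives and its adjusted p ran between 3.68e-11 and 0.975 over them. Without the library on PUCL@CNT1 in differentiation medium the fitted log2 ratio was 0.23 (edgeR adjusted p = 0.69). It was 0.51 without that on PUCL@CNT1 in maintenance medium (edgeR adjusted p = 0.975) and 0.47 without that on PUCL in maintenance medium (edgeR adjusted p = 0.899). These fits also left out the platform term, which alone gave an edgeR adjusted p of 0.251. Neuronal markers summed to a lower level in both differentiation libraries. Among them Dcx went the other way on both platforms (61 and 79 counts against 39 and 48 in maintenance medium, PUCL@CNT1 first). Tubb3 did so on PUCL@CNT1 and Elavl3 on PUCL. Nes, an intermediate filament gene of neural progenitors, had 3714 and 3461 counts in differentiation medium against 2363 and 2420 (same order). Of the other NSPC markers, Sox2, Pax6 and Prom1 were lower in differentiation medium on PUCL@CNT1. The rest with counts were higher on both platforms. The part of cell types in the Tubb2b values was not tested.

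The other beta-tubulins did not pass the test. Tubb2a, the close relative of Tubb2b, had 5152 counts on PUCL@CNT1 and 5035 on PUCL in differentiation medium, against 3650 on PUCL@CNT1 and 4076 on PUCL in maintenance medium. The differentiation libraries were again above the maintenance libraries, with log2 ratios of 0.41 on PUCL@CNT1 and 0.33 on PUCL (fitted 0.37 ± 0.181 SE, edgeR adjusted p = 0.385). Tubb5, a beta-tubulin found in most dividing cells, had 10744 counts on PUCL@CNT1 and 13697 on PUCL in differentiation medium, against 12673 on PUCL@CNT1 and 15572 on PUCL in maintenance medium. Its level was lower on PUCL@CNT1 than on PUCL in each medium (log2 ratios -0.39 in differentiation and -0.22 in maintenance medium, edgeR adjusted p = 0.653). Tubb6 had 3369 counts on PUCL@CNT1 and 1697 on PUCL in differentiation medium, against 2462 on PUCL@CNT1 and 2285 on PUCL in maintenance medium (fitted platform log2 ratio 0.57 ± 0.213 SE, edgeR adjusted p = 0.393). Tubb4b ranged between 2168 and 2579 counts, with pair ratios within 0.33 of 0 on the log2 scale.

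Tubb2b took a larger share of beta-tubulin counts in differentiation medium. The share was 77.9% (exact 95% interval 77.6 to 78.1) on PUCL@CNT1 and 70.3% (70.0 to 70.6) on PUCL in differentiation medium, against 67.7% (67.3 to 68.0) on PUCL@CNT1 and 65.6% (65.2 to 65.9) on PUCL in maintenance medium. Tubb5 held 10.9% and 17.9% in differentiation medium, against 19.2% and 22.2% in maintenance medium, with PUCL@CNT1 first in each pair. Shares are of 3′ counts within 1 library, and the intervals cover counting error only.

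**Figure D1:**
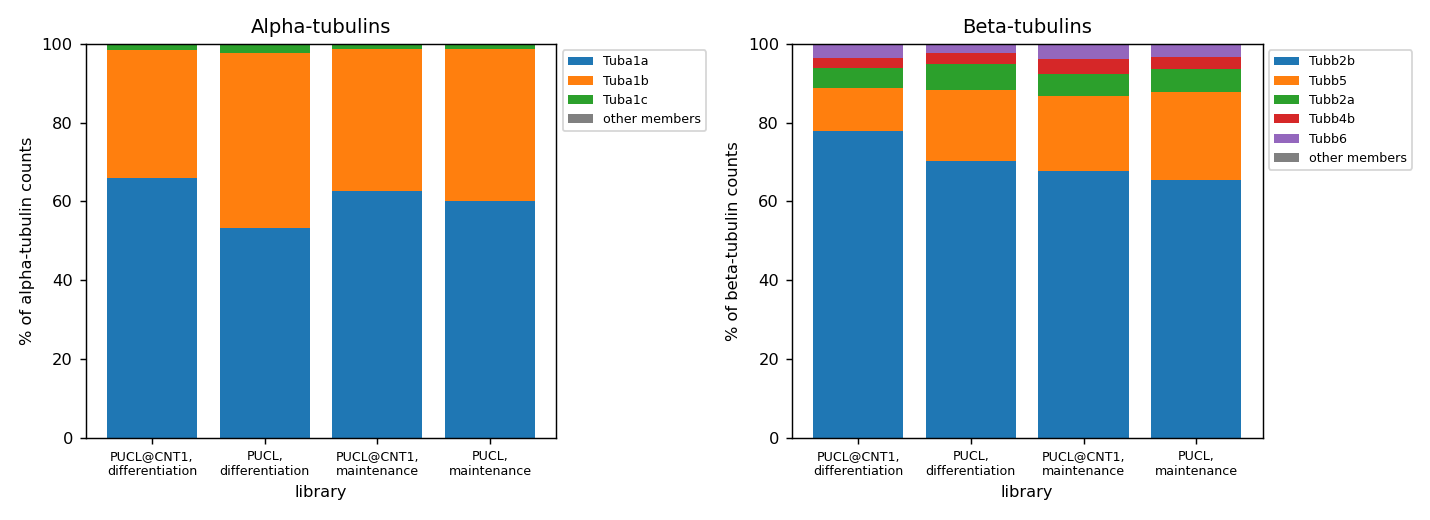
Shares of alpha-tubulin counts (left) and beta-tubulin counts (right) in %, 1 stacked bar for each of the 4 libraries, with each colour 1 gene. Tubb2b filled 77.9% of beta-tubulin counts on PUCL@CNT1 in differentiation medium, the tallest of its 4 segments, and Tuba1a filled 53.3% of alpha-tubulin counts on PUCL in differentiation medium, the shortest of its segments.

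Among alpha-tubulins the largest departure of an abundant gene was that of Tuba1a, an isotype of newborn neurons, on PUCL in differentiation medium. Tuba1a had 46255 counts on PUCL@CNT1 and 27187 on PUCL in differentiation medium, against 41490 on PUCL@CNT1 and 39023 on PUCL in maintenance medium. The PUCL differentiation library stood below the other 3. PUCL@CNT1 over PUCL had a log2 ratio of 0.73 (0.70 to 0.75) in differentiation medium and 0.17 (0.15 to 0.19) in maintenance medium, and the fitted platform ratio was 0.45 ± 0.117 (SE, edgeR adjusted p = 0.0523), outside the threshold. It was 0.21 without the library on PUCL in differentiation medium, with the medium term also left out, and over all alternatives the adjusted p lay between 5.04e-06 and 1. Tuba1a took 65.9% (65.5 to 66.2) of alpha-tubulin counts on PUCL@CNT1 and 53.3% (52.9 to 53.8) on PUCL in differentiation medium, against 62.6% (62.3 to 63.0) on PUCL@CNT1 and 60.1% (59.7 to 60.5) on PUCL in maintenance medium. Tuba1b, the ubiquitous isotype whose gene neighbours that of Tuba1a, stayed between 22661 and 25071 counts in the 4 libraries, with pair log2 ratios of -0.15 to 0.01. Reads of near-identical tubulin genes may have been shared out between copies. Tuba1c, which had a pair of entries that were summed and is uncertain for that reason, had 929 counts on PUCL@CNT1 and 1027 on PUCL in differentiation medium, against 819 on PUCL@CNT1 and 676 on PUCL in maintenance medium.

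**Figure D2:**
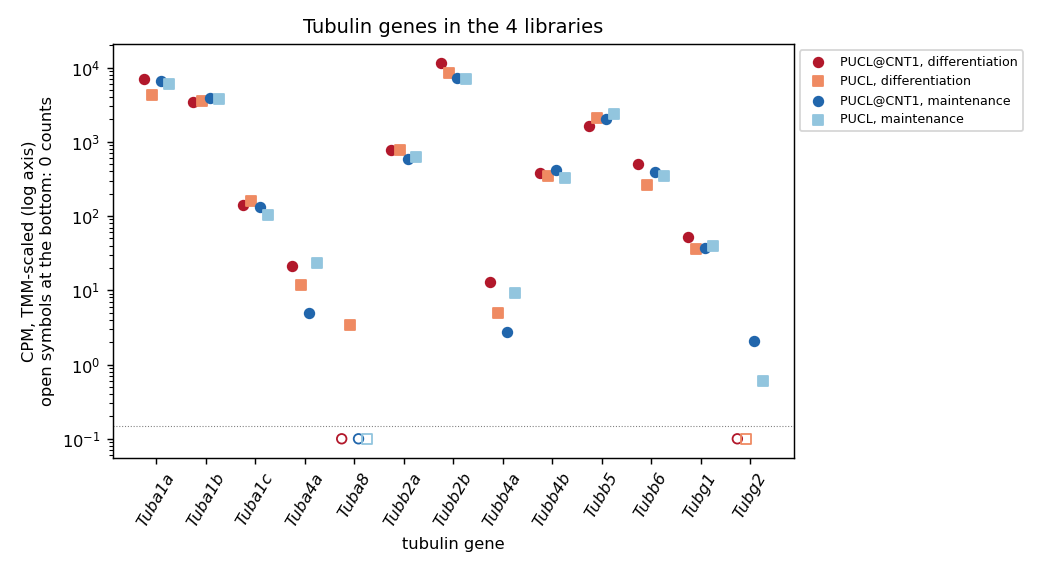
Level of each tubulin gene with counts past the filter in the 4 libraries, in CPM scaled by TMM on a log axis, with open symbols at the bottom for 0 counts. Tubb2b reached 11581 CPM on PUCL@CNT1 in differentiation medium, and Tuba4a and Tubb4a were lowest on PUCL@CNT1 in maintenance medium, at 4.96 and 2.72 CPM.

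A pair of low-count isotypes, Tuba4a and Tubb4a, shared a pattern in which the platform difference turned over between media. Tuba4a had 141 counts on PUCL@CNT1 and 75 on PUCL in differentiation medium, against 31 on PUCL@CNT1 and 154 on PUCL in maintenance medium. Its medium ratio was 2.08 (1.53 to 2.71) on PUCL@CNT1 on the log2 scale, and the interval on PUCL was -1.43 to -0.60. With DESeq2 size factors the ratio on PUCL was -0.99, short of the 2-fold size. Tubb4a, known from neurons and myelinating oligodendrocytes, had 86 counts on PUCL@CNT1 and 32 on PUCL in differentiation medium, against 17 on PUCL@CNT1 and 60 on PUCL in maintenance medium. The level of both genes was lowest on PUCL@CNT1 in maintenance medium. Between media the platform difference changed by 3.08 for Tuba4a (95% counting interval 2.40 to 3.77) and 3.08 for Tubb4a (2.12 to 4.05) on the log2 scale. By the size rule 15 of 58 members (25.9%) had such a change, 5 towards PUCL@CNT1 and 10 towards PUCL in differentiation medium, against 29.5% of all genes. Tuba8 had 22 counts on PUCL in differentiation medium and 0 in the other 3 libraries.

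Gamma-tubulin Tubg1, which nucleates microtubules at centrosomes, had 351 counts on PUCL@CNT1 and 236 on PUCL in differentiation medium, against 232 on PUCL@CNT1 and 263 on PUCL in maintenance medium. The PUCL@CNT1 differentiation library was above the other 3, by less than 2-fold. Tubg2, its neighbour in the genome, had 0 counts in both differentiation libraries, against 13 on PUCL@CNT1 and 4 on PUCL in maintenance medium.

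The Ttll enzymes, most of which add glutamate or glycine to the tails of tubulin, were low in counts, and 4 of 7 passed the filter. Ttll1, a glutamylase of the tubulin polyglutamylase complex, had 202 counts on PUCL@CNT1 and 0 on PUCL in differentiation medium, against 47 on PUCL@CNT1 and 0 on PUCL in maintenance medium. Every count of Ttll1 was on PUCL@CNT1. With a count of 0 set at 3 counts per library, the level of Ttll1 on PUCL@CNT1 was at least 65.5-fold that on PUCL in differentiation medium and at least 16.5-fold in maintenance medium (edgeR adjusted p = 0.0186). On PUCL a count of 0 allowed up to 0.464 CPM in differentiation medium and 0.455 CPM in maintenance medium. The call was kept in 3 of 10 alternatives with an adjusted p, which ran from 0.000676 to 1, and leaving out the medium term alone gave an edgeR adjusted p of 0.17. With 3 libraries that term has to be left out as well, and the edgeR adjusted p was then 1 without the library on PUCL@CNT1 in differentiation medium, 0.163 without that on PUCL in differentiation medium and 0.187 without that on PUCL in maintenance medium, so the parts of the term and of the library in these lost calls cannot be told apart. Within PUCL@CNT1, Ttll1 was 4.01-fold higher in differentiation medium than in maintenance medium.

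Ttll9, an enzyme of the same family best known from motile cilia, had 16 counts on PUCL@CNT1 and 354 on PUCL in differentiation medium, against 24 on PUCL@CNT1 and 22 on PUCL in maintenance medium. The library from PUCL in differentiation medium stood alone, with a log2 medium ratio of 4.01 (3.42 to 4.73) on PUCL and -0.66 (-1.69 to 0.30) on PUCL@CNT1. The cilium-associated kinesins Kif9 and Kif27, named after their values were seen, had 19 and 38 counts in that same library and 0 in the other 3. Tuba8 likewise had counts (22) in that library alone, and the share of all genes with this pattern was not counted. Other members with a part in cilia were lower after the switch on PUCL: Kif3a (log2 ratio -0.96), Kif3b (-0.77) and Dync2li1 (-0.98). Dync2h1 was at 0.19 there, and Ttll1 had 0 counts on PUCL. Markers of multiciliated ependyma (4 of 5 in the files with counts) summed to 7.07 CPM on PUCL@CNT1 and 26.9 CPM on PUCL in differentiation medium, against 0.160 CPM on PUCL@CNT1 and 12.0 CPM on PUCL in maintenance medium. Of these markers Foxj1, a regulator of motile cilia, had 35 counts on PUCL@CNT1 and 123 on PUCL in differentiation medium, against 0 on PUCL@CNT1 and 45 on PUCL in maintenance medium. Tekt1 had 12, 28, 0 and 34 counts in the same order of libraries, and so was highest on PUCL in maintenance medium. Rsph1 had 0, 15, 0 and 0 counts, Dnai1 had 0, 8, 1 and 0, and Ccdc153 was at 0 throughout. The part of such cells in these values was not tested. Ttll3 had 0, 12, 6 and 0 counts and Ttll12 0, 0, 0 and 18 counts, in the order PUCL@CNT1 and PUCL in differentiation medium, then PUCL@CNT1 and PUCL in maintenance medium.

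**Figure D3:**
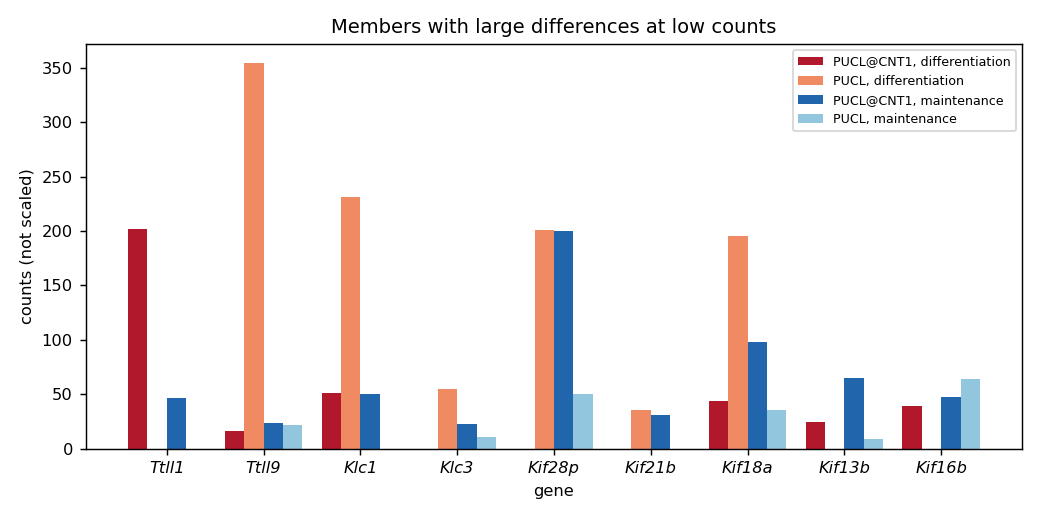
Unscaled counts of 9 members with large differences at low counts, with 1 bar per library in the order PUCL@CNT1 and PUCL in differentiation medium, then PUCL@CNT1 and PUCL in maintenance medium. Ttll1 has bars of 202 and 47 counts on PUCL@CNT1 and none on PUCL, and Ttll9 reaches 354 counts on PUCL in differentiation medium.

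The mitotic kinesins move chromosomes, slide spindle poles apart or act in cytokinesis, and all 9 in the files passed the filter. In differentiation medium all 9 were lower on PUCL@CNT1 than on PUCL, with a median log2 ratio of -0.53 and a range of -2.18 (Kif18a) to -0.33 (Kif18b), against a median of 0.02 over all genes, of which 4989 of 10106 with counts were lower. In maintenance medium 5 of 9 were lower on PUCL@CNT1, with a median of -0.14 against -0.01 over all genes. Under DESeq2 size factors and under total counts as the scaling, these counts stayed at 9 and 5. By the size rule, Kif18a was the member of the group past it for the platform in either medium, and none of the 9 passed the edgeR test for platform or medium. At an unadjusted p under 0.05 were Kif2c for the platform and Kif18b for the medium. Among G2 and M phase cell cycle genes outside the family, 18 of 20 were lower on PUCL@CNT1 in differentiation medium (median -0.44), 12 of 20 in maintenance medium (median -0.15), and none of the 20 passed the edgeR test for either term.

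Kif11, the motor that separates spindle poles, had 307 counts on PUCL@CNT1 and 400 on PUCL in differentiation medium, against 228 on PUCL@CNT1 and 438 on PUCL in maintenance medium. Its library on PUCL was above that on PUCL@CNT1 in each medium. Kif2c, a kinesin that takes microtubules apart at kinetochores, had 623 counts on PUCL@CNT1 and 874 on PUCL in differentiation medium, against 528 on PUCL@CNT1 and 906 on PUCL in maintenance medium (fitted platform log2 ratio -0.61 ± 0.305 SE, edgeR adjusted p = 0.714). Kif15, which works beside Kif11 in spindle assembly, had 62 counts on PUCL@CNT1 and 120 on PUCL in differentiation medium, against 98 on PUCL@CNT1 and 181 on PUCL in maintenance medium. Kif20b, a cytokinesis motor, had 204 counts on PUCL@CNT1 and 277 on PUCL in differentiation medium, against 247 on PUCL@CNT1 and 403 on PUCL in maintenance medium. These 4 genes were lower on PUCL@CNT1 in both media.

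Kif20a, which brings regulators to the midzone of the dividing cell, had 829 counts on PUCL@CNT1 and 1258 on PUCL in differentiation medium, against 645 on PUCL@CNT1 and 753 on PUCL in maintenance medium. Kif22, a chromosome-arm motor, had 793 counts on PUCL@CNT1 and 1096 on PUCL in differentiation medium, against 1116 on PUCL@CNT1 and 1072 on PUCL in maintenance medium. Kif23, a subunit of centralspindlin, had 105 counts on PUCL@CNT1 and 160 on PUCL in differentiation medium, against 222 on PUCL@CNT1 and 215 on PUCL in maintenance medium. For Kif22 and Kif23 the library on PUCL@CNT1 in differentiation medium was the lowest, and the maintenance libraries lay close together. After the switch the 9 had a median log2 ratio of -0.58 on PUCL@CNT1 and -0.10 on PUCL, against 0.03 and -0.01 over all genes. On PUCL@CNT1 Kif18a, Kif18b and Kif23 passed the size rule as lower, against 14.5% of all genes lower in that pair.

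Kif18a, which damps chromosome movement at the metaphase plate, varied most within the group. Kif18a had 44 counts on PUCL@CNT1 and 195 on PUCL in differentiation medium, against 98 on PUCL@CNT1 and 36 on PUCL in maintenance medium. The highest library was PUCL in differentiation medium and the lowest PUCL in maintenance medium. Its platform log2 ratio was -2.18 (-2.69 to -1.71) in differentiation medium and 1.51 (0.96 to 2.12) in maintenance medium. Kif18b, its relative, had 406 counts on PUCL@CNT1 and 495 on PUCL in differentiation medium, against 797 on PUCL@CNT1 and 707 on PUCL in maintenance medium. Both differentiation libraries of Kif18b lay below both maintenance libraries (fitted medium log2 ratio -0.77 ± 0.327 SE, edgeR adjusted p = 0.259).

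**Figure D4:**
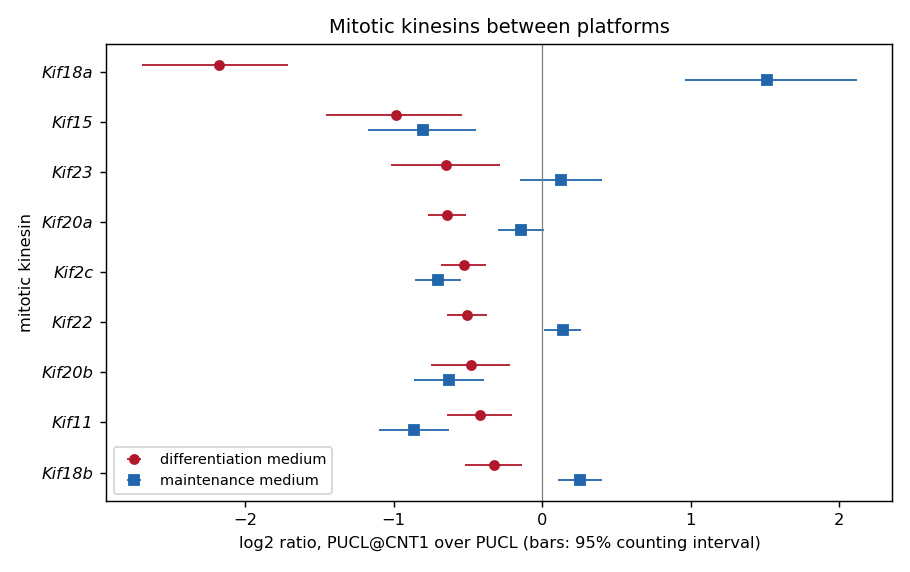
Log2 ratio of PUCL@CNT1 over PUCL for the 9 mitotic kinesins, circles for differentiation medium and squares for maintenance medium, with bars for the 95% counting interval of 1 library against 1 library. All 9 circles lie left of 0, between -2.18 and -0.33, whereas 4 of the squares lie right of 0.

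Transport kinesins carry vesicles, organelles and RNA along axons and dendrites, and 10 of 12 passed the filter. After the switch 9 of 10 were lower on PUCL@CNT1 (median log2 ratio -0.57) and 9 of 10 on PUCL (median -0.87), against medians of 0.03 and -0.01 over all genes. The exception was Kif1c on PUCL@CNT1 and Kif21b on PUCL, and no transport kinesin passed the edgeR test. Of all genes with counts, 4895 of 10057 were lower on PUCL@CNT1 and 5065 of 10071 on PUCL. Some of the lower ratios were near 0, as for Kif13a on PUCL@CNT1 (-0.07, 95% counting interval -0.20 to 0.06) and Kif1c on PUCL (-0.07). Kif5b, the ubiquitous conventional kinesin, had 1602 counts on PUCL@CNT1 and 923 on PUCL in differentiation medium, against 1884 on PUCL@CNT1 and 1550 on PUCL in maintenance medium. The library on PUCL in differentiation medium was the lowest (fitted medium log2 ratio -0.52 ± 0.241 SE, edgeR adjusted p = 0.34). Kif13a, an endosome motor, had 944 counts on PUCL@CNT1 and 630 on PUCL in differentiation medium, against 931 on PUCL@CNT1 and 987 on PUCL in maintenance medium.

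Kif1c, a transporter of vesicles and mRNA, had 7274 counts on PUCL@CNT1 and 3968 on PUCL in differentiation medium, against 3225 on PUCL@CNT1 and 4260 on PUCL in maintenance medium. The library on PUCL@CNT1 in differentiation medium was above the others, with a medium log2 ratio of 1.08 (1.02 to 1.14) on PUCL@CNT1 and -0.07 (-0.14 to -0.01) on PUCL. The change of its platform difference between media was 1.16 (1.07 to 1.24) on the log2 scale, and the additive edgeR fit gave 0.51 ± 0.193 (SE, adjusted p = 0.176). With the platform term and 1 library left out, the fitted ratio was 0.07 without the library on PUCL@CNT1 in differentiation medium (edgeR adjusted p = 0.944) and 0.91 without that on PUCL in differentiation medium (edgeR adjusted p = 0.0287), and over all alternatives the adjusted p lay between 0.0277 and 0.983. Kif1b, which carries synaptic vesicle precursors and mitochondria, had 43 counts on PUCL@CNT1 and 64 on PUCL in differentiation medium, against 54 on PUCL@CNT1 and 315 on PUCL in maintenance medium. Here the library on PUCL in maintenance medium stood alone.

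The subunits Kif3a and Kif3b of the kinesin-2 motor, which also builds cilia, were lower in both differentiation libraries. Kif3a had 92 counts on PUCL@CNT1 and 112 on PUCL in differentiation medium, against 156 on PUCL@CNT1 and 223 on PUCL in maintenance medium. Kif3b had 124 counts on PUCL@CNT1 and 193 on PUCL in differentiation medium, against 265 on PUCL@CNT1 and 337 on PUCL in maintenance medium. Kif5c, the neuron-enriched conventional kinesin, had 46 counts on PUCL@CNT1 and 57 on PUCL in differentiation medium, against 72 on PUCL@CNT1 and 121 on PUCL in maintenance medium. For these 3 genes the differentiation libraries lay below the maintenance libraries without overlap. Of the tested transport kinesins the same held for Kif13a and Kif16b, and it held for 19.3% of all genes. Summed neuronal markers and summed mural and fibroblast markers both had the same order of libraries as Kif3a, Kif3b and Kif5c. Singly, the neuronal markers Map2, Elavl4 and Gap43 did not have it, and Dcx was higher in differentiation medium on both platforms. The part of cell types was not tested. For Kif3a, Kif3b and Kif5c, log2 ratios of the switch ran from -1.18 to -0.73 on PUCL@CNT1 and from -1.05 to -0.77 on PUCL.

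Kif13b, a motor of phosphoinositide-bearing vesicles, passed the size rule in the same direction in both pairs of the medium and in both pairs of the platform. Kif13b had 25 counts on PUCL@CNT1 and 0 on PUCL in differentiation medium, against 65 on PUCL@CNT1 and 9 on PUCL in maintenance medium. It was the member lower after the switch on both platforms, against 3.52% of all genes, while 0 members were higher on both (4.35% of all genes). Ttll1 and Kif13b were the 2 members higher on PUCL@CNT1 in both media, against 2.52% of all genes, while 0 members were lower in both (3.17% of all genes). Kif16b, an endosome motor, had 39 counts on PUCL@CNT1 and 0 on PUCL in differentiation medium, against 48 on PUCL@CNT1 and 64 on PUCL in maintenance medium. In differentiation medium its level on PUCL@CNT1 was at least 12.6-fold that on PUCL. Kif21b, a neuronal kinesin that also slows microtubule growth, had 0 counts on PUCL@CNT1 and 36 on PUCL in differentiation medium, against 31 on PUCL@CNT1 and 0 on PUCL in maintenance medium.

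**Figure D5:**
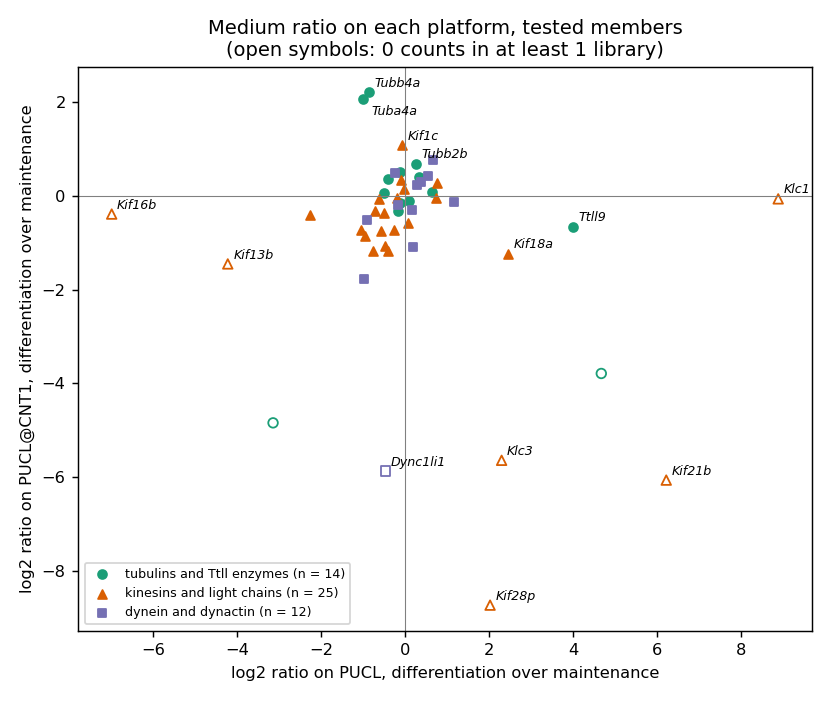
Log2 ratio of differentiation over maintenance medium for the 51 tested members with a ratio on both platforms, PUCL on the horizontal axis and PUCL@CNT1 on the vertical axis. Open symbols have 0 counts in at least 1 library, and their place depends on the prior count of 0.5. Tubb2b lies right of and above 0 (0.25 and 0.69), Kif18a at 2.45 and -1.24.

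Among the other kinesins, Kif2a, which shortens microtubules in neurites and spindles, had 672 counts on PUCL@CNT1 and 800 on PUCL in differentiation medium, against 1051 on PUCL@CNT1 and 975 on PUCL in maintenance medium. Both differentiation libraries were below both maintenance libraries, by less than 2-fold. Kif1bp, a kinesin-binding protein that the symbol rule includes although it is no kinesin, stayed between 251 and 316 counts. Kif28p had 0 counts on PUCL@CNT1 and 201 on PUCL in differentiation medium, against 200 on PUCL@CNT1 and 50 on PUCL in maintenance medium. It was at least 71.0-fold lower after the switch on PUCL@CNT1, whereas its log2 ratio on PUCL was 2.03 (1.58 to 2.51). Kif26b had 17 counts on PUCL@CNT1 in differentiation medium and 0 in the other 3 libraries.

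Kinesin light chains, which couple the conventional kinesin to its cargo, were lower on PUCL@CNT1 than on PUCL in differentiation medium in all 3 cases. Klc1 had 51 counts on PUCL@CNT1 and 231 on PUCL in differentiation medium, against 50 on PUCL@CNT1 and 0 on PUCL in maintenance medium. Klc3 had 0 counts on PUCL@CNT1 and 55 on PUCL in differentiation medium, against 23 on PUCL@CNT1 and 11 on PUCL in maintenance medium. Klc4 had 68 counts on PUCL@CNT1 and 141 on PUCL in differentiation medium, against 66 on PUCL@CNT1 and 86 on PUCL in maintenance medium. The library on PUCL in differentiation medium was the highest for each of the 3, and all 3 passed the size rule there, against 15.6% of all genes lower in that pair. None passed the edgeR test.

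Cytoplasmic dynein 1 is the main minus-end motor, and none of its 5 tested subunits passed the edgeR test. Dync1h1, the heavy chain, had 967 counts on PUCL@CNT1 and 1279 on PUCL in differentiation medium, against 1120 on PUCL@CNT1 and 1168 on PUCL in maintenance medium. Dync1i2, an intermediate chain, ranged between 4415 and 5090 counts, with pair log2 ratios of -0.19 to 0.09. Dync1li2, a light intermediate chain that binds cargo adaptors, had 893 counts on PUCL@CNT1 and 601 on PUCL in differentiation medium, against 1190 on PUCL@CNT1 and 1156 on PUCL in maintenance medium. The differentiation libraries were below the maintenance libraries (fitted log2 ratio -0.71 ± 0.279 SE, edgeR adjusted p = 0.201). Its partner Dync1li1 had 0 counts on PUCL@CNT1 and 19 on PUCL in differentiation medium, against 27 on PUCL@CNT1 and 27 on PUCL in maintenance medium. Dync1i1, the intermediate chain of neurons, had 14 counts on PUCL@CNT1 and 0 on PUCL in differentiation medium, against 4 on PUCL@CNT1 and 0 on PUCL in maintenance medium.

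Dynein 2, the motor of return transport in cilia, was lower after the switch on PUCL@CNT1. Dync2h1, its heavy chain, had 126 counts on PUCL@CNT1 and 159 on PUCL in differentiation medium, against 251 on PUCL@CNT1 and 142 on PUCL in maintenance medium. Dync2li1, its light intermediate chain, had 60 counts on PUCL@CNT1 and 69 on PUCL in differentiation medium, against 194 on PUCL@CNT1 and 139 on PUCL in maintenance medium. On PUCL@CNT1 the log2 ratios of the switch were -1.08 (-1.40 to -0.77) and -1.77 (-2.23 to -1.36), both past the size rule, against 14.5% of all genes lower in that pair. On PUCL they were 0.19 (-0.14 to 0.53) and -0.98 (-1.42 to -0.56). Neither passed the edgeR test.

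Dynactin subunits lay above 0 after the switch in 5 of 6 cases on each platform, and none passed the edgeR test. Medians were 0.36 on PUCL@CNT1 and 0.46 on PUCL, against 0.03 and -0.01 over all genes. Of all genes with counts, 5162 of 10057 lay above 0 on PUCL@CNT1 and 5006 of 10071 on PUCL. The subunit below 0 was Dctn5 on PUCL@CNT1 (-0.14) and Dctn6 on PUCL (-0.24). The counts of 5 of 6 also held under DESeq2 size factors and total counts as the scaling. Dctn1 (p150), which binds microtubules, had 1467 counts on PUCL@CNT1 and 2038 on PUCL in differentiation medium, against 1032 on PUCL@CNT1 and 1427 on PUCL in maintenance medium. Each platform was higher in differentiation medium, and PUCL was above PUCL@CNT1 in each medium (fitted medium log2 ratio 0.48 ± 0.24 SE, edgeR adjusted p = 0.406). Dctn2, the dynamitin subunit, had 903 counts on PUCL@CNT1 and 651 on PUCL in differentiation medium, against 692 on PUCL@CNT1 and 508 on PUCL in maintenance medium. Dctn4, a pointed-end subunit, had 490 counts on PUCL@CNT1 and 285 on PUCL in differentiation medium, against 271 on PUCL@CNT1 and 184 on PUCL in maintenance medium. Dctn5, another pointed-end subunit, had 376 counts on PUCL@CNT1 and 379 on PUCL in differentiation medium, against 388 on PUCL@CNT1 and 172 on PUCL in maintenance medium, so that the library on PUCL in maintenance medium stood alone. Dctn3 ranged between 631 and 795 counts and Dctn6 between 480 and 832.

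Beyond the members, 2 genes in lists of the wider pathway passed the edgeR test for the medium, where 2.81% of all genes did. Of 9 tested modifiers of tubulin outside the Ttll group, 1 fell after the switch: Vash2, a carboxypeptidase that removes the terminal tyrosine of alpha-tubulin. Vash2 had 72 counts on PUCL@CNT1 and 91 on PUCL in differentiation medium, against 273 on PUCL@CNT1 and 394 on PUCL in maintenance medium. Its differentiation libraries did not overlap its maintenance libraries (fitted log2 ratio -2.05 ± 0.547 SE, edgeR adjusted p = 0.0179, kept in 5 of 11 alternatives). Of 34 tested microtubule-associated proteins 1 rose: Clasp2, which stabilizes plus ends. Clasp2 had 1205 counts on PUCL@CNT1 and 1714 on PUCL in differentiation medium, against 582 on PUCL@CNT1 and 802 on PUCL in maintenance medium (fitted log2 ratio 1.04 ± 0.268 SE, edgeR adjusted p = 0.0129, kept in 6 of 11 alternatives). With the platform term left out, the edgeR adjusted p was 0.0355 for Vash2 and 0.0488 for Clasp2 over the 4 libraries. In fits that left out that term and also 1 library, the edgeR adjusted p of Vash2 was 0.0835 without the library on PUCL@CNT1 in differentiation medium, 0.266 without that on PUCL@CNT1 in maintenance medium and 0.541 without that on PUCL in maintenance medium, and over all its alternatives it lay between 0.0223 and 0.541. That of Clasp2 was 0.322 without the library on PUCL in differentiation medium, 0.797 without that on PUCL@CNT1 in maintenance medium and 0.34 without that on PUCL in maintenance medium, and over all its alternatives it lay between 0.00571 and 0.797. None of 14 tested genes of tubulin folding and microtubule nucleation and none of 24 tested dynein regulators and motor adaptors passed for the medium, and no gene of these lists passed between platforms.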

How the data were processed

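Per the labels' protocols, libraries were made from Trizol RNA with the QuantSeq kit of Lexogen, which samples 3′ ends of polyadenylated RNA. The authors deposited raw counts for each gene symbol, whole numbers that were not normalized. Bowtie2, bedtools and the build rn6 are named in the submitters' processing notes; versions, annotation, strand setting and filters were not given in the sources used here, so overlapping and antisense genes cannot be told apart and reads of similar genes may have been split. From the files, 17048 entries were summed to 16881 symbols, and 10516 that reached 10 counts in any library were tested. Without molecular identifiers, intervals and floors cover counting error only.

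edgeR 4.0.16 (R 4.3.3) used TMM (trimmed mean of M values) scaling and Benjamini-Hochberg adjustment over all tested genes, at a threshold of 0.05. The fit left 1 residual degree of freedom with 87.2 prior degrees of freedom, so the spread of other genes dominates each p. Platforms serve in it as repeats for the medium, and media as repeats for the platform. The SE is the log2 ratio over the root of F. Nothing says whether cultures were independent, and p-values speak for these libraries alone. The residual of a gene is its departure from additive platform and medium terms, not a spread between like libraries. Library pairs had 0.5 added to each count and exact (Clopper-Pearson) 95% intervals, computed with scipy 1.17.1, and say nothing beyond these libraries. For a change of the platform difference, the same sizes were applied with a normal interval. Bounds replaced each 0 by 3 counts in that library. The fit was tested on simulated data of the medium comparison with 10516 genes, where it called 15 of 50 genes raised 2-fold, 31 of 50 raised 4-fold, 3 of 50 lowered to 0.5 and 17 of 50 lowered to 0.25, and 3 of 10316 unchanged genes.

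Members and lists were chosen with earlier results of these data known. Named with full values were members past edgeR, past the size rule in the same direction in both pairs of a comparison, or past it for a change of the platform difference, and the 3 of each role with the highest mean CPM; other members named were chosen after their values were seen. Alternatives were DESeq2 1.42.0, limma-voom (limma 3.58.1), other scalings, filters and sizes, the other term left out, and each library left out together with that term. Promoter sequences are from RefSeq (GRCr8).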

Additional observations from a re-analysis of the deposited data

Results flagged for a closer look

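In these members the medium ratio or the platform ratio passed the size rule in opposite directions in the 2 pairs of libraries. The difference between the pairs was not tested, and opposite pairs past the size rule made up 4.18% of all genes for the medium and 4.98% for the platform. Kif18a had a medium log2 ratio of -1.24 on PUCL@CNT1 and 2.45 on PUCL, and a platform log2 ratio of -2.18 in differentiation medium and 1.51 in maintenance medium. Tuba4a had a medium log2 ratio of 2.08 on PUCL@CNT1, and its 95% counting interval on PUCL was -1.43 to -0.60. With DESeq2 size factors the Tuba4a ratio on PUCL was -0.99, short of the 2-fold size, so the opposite directions past the rule do not hold there. Tubb4a had a platform log2 ratio of 1.37 in differentiation medium and -1.71 in maintenance medium.

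The others had 0 counts in at least 1 library, and their bounds were taken against 3 counts per library. Kif21b was at least 11-fold lower after the switch on PUCL@CNT1 and at least 12.2-fold higher on PUCL. It was at least 12.3-fold lower on PUCL@CNT1 than on PUCL in differentiation medium and at least 10.9-fold higher in maintenance medium. Kif28p was at least 71.0-fold lower after the switch on PUCL@CNT1, and its log2 ratio on PUCL was 2.03. On PUCL@CNT1 it was at least 68.9-fold lower than on PUCL in differentiation medium, and its log2 ratio was 2.07 in maintenance medium. Klc1 had a platform log2 ratio of -2.21 in differentiation medium and its level on PUCL@CNT1 was at least 17.6-fold that on PUCL in maintenance medium. Klc3 was at least 8.16-fold lower after the switch on PUCL@CNT1, and its log2 ratio on PUCL was 2.30.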

How the results depend on the processing

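The count of members past edgeR after the medium switch was 1 (Tubb2b). It was 0 with a mean of 50 counts or more or with the platform term left out, 2 in limma-voom (Kif1c and Tubb2b), and 0 to 3 with each library and the platform term left out together. The count between platforms was 1 (Ttll1). It was 0 with DESeq2 size factors, with a mean of 50 counts or more, in DESeq2, where 11 of 58 members had an adjusted p, and with the medium term left out, 2 in limma-voom (Tuba1a and Tubb2b), and 0 to 2 with each library and the medium term left out together. With 3 libraries both terms leave no residual degree of freedom, so the parts of a library and of a term cannot be told apart in these fits. Of members past the size rule, a mean of 50 counts or more left 10 for the switch on PUCL@CNT1, 8 for the switch on PUCL, 6 for the platform in differentiation medium and 7 in maintenance medium, where fewer genes enter. The stricter 3-fold rule left 10 for the switch on PUCL@CNT1. The fitted platform ratio of Tubb2b ran from -0.0844 to 0.598 on the log2 scale with each library and the medium term left out, and reversed to its lowest value without the library on PUCL@CNT1 in differentiation medium (edgeR adjusted p = 1), and the cause was not tested. Of the fitted ratios not called, that of Kif5b ran from -0.92 to -0.15 for the medium and 0.22 to 0.93 for the platform, that of Dctn1 from 0.21 to 0.72 for the medium and that of Tubb5 from -0.47 to -0.13 for the platform. Against the 2-fold size, the Tuba4a ratio on PUCL was -0.99 with DESeq2 size factors and the Kif1c ratio on PUCL@CNT1 was 0.99 under total counts. No paired analysis was possible because each group was 1 library, beyond the additive fit itself, which compares the media within platforms and the platforms within media. At these depths a member with 0 counts may lie below 0.451 to 0.480 CPM.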
